A study of Mus musculus with 24 samples.

Results

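The genes of mitosis and the mitotic spindle were described here in D2.1 and D2A1 mouse mammary tumor cells and in the tumors these cells formed. The members are a given list of 42 gene symbols, named by their function in cell division and not by any measured value. The list was chosen with earlier results of these data known. Each symbol matched a single Ensembl identifier, so all 42 genes were found among the 34519 genes listed for both cultured cells and tumors, and all 42 passed the expression filter in each of the 9 comparisons. They fell into 8 roles, namely proliferation marks (2 genes), cyclins, CDK1 and their activators (8), mitotic kinases and their partners (5), the spindle assembly checkpoint (5), the anaphase-promoting complex with securin and separase (4), centromere and kinetochore (5), kinesins and spindle proteins (7) and the midzone and cytokinesis (6).

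A cell enters mitosis when CDK1 bound to a B-type cyclin is activated by CDC25 phosphatases and helped by Polo-like and Aurora kinases. The spindle then attaches to the kinetochores, and the checkpoint proteins hold back the anaphase-promoting complex until every chromosome is attached. CDC20 and UBE2C then let this complex destroy securin and cyclin B, separase cuts cohesin, and the central spindle and a ring of actin and myosin split the cell. Transcripts of most of these genes are known to build up only in late S phase, G2 and mitosis, under FOXM1, B-Myb and the MuvB complex, and they are therefore commonly read as a measure of cycling cells.

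Both lines came from D2 hyperplastic nodules of BALB/c mice, and D2.1 is used as a line that stays dormant after spreading and D2A1 as one that grows. Cultured parental D2.1 and D2A1 cells were sequenced as 3 replicates each. For tumor studies female mice 8 to 12 weeks of age were used, and they received 1000000 cells in the mammary fat pad. Tumors were collected at about 500 mm3, with 4 per line from immunocompetent BALB/c mice and 5 per line from SCID-beige mice, which lack T and B cells and have defective NK cells. The labels give no day of collection. In other experiments of the paper, D2A1 tumors reached the size of D2.1 tumors earlier, and D2A1 tumors grew more slowly in BALB/c than in SCID-beige mice. Time in the mouse may therefore differ between the lines, and for D2A1 between the hosts. The paper calls these D2.1 tumors later-stage. None of the groups had a treatment, and each line is a single model, so a difference between lines is between these 2 lines and not between dormant and growing tumors in general. The tumors were sequenced whole, host cells included, and line and host RNA are both mouse RNA.

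Library totals were 16837260 to 24818234 counts in cells and 13566949 to 18355153 in tumors. Levels are given as CPM (read counts scaled to 1000000 per library), scaled over all 24 libraries by edgeR's TMM factors. The cell and tumor tables were made with different gene models, because the gene lengths implied by counts and FPKM in the tumor table were 0.525 times those in the cell table for the median member (0.261 to 1.62) and 0.584 times for the median of 11313 genes, so that a table and growth in a mouse cannot be told apart. Several libraries stood apart from their group. The D2.1 SCID-beige tumor 4 had the highest level of its group for 27 of the 42 genes and the lowest for none, and its mammary epithelial markers summed to 1199 CPM against 478 to 651 in the other 4 tumors. The D2.1 BALB/c tumor 1 held transcripts of adipocytes (543 CPM), milk proteins (379 CPM), skeletal muscle (336 CPM) and skin keratins (28.3 CPM). Tumor 4 of that group held skin keratin (114 CPM) and milk protein (58.5 CPM) transcripts. Skeletal muscle markers summed to 251 and 205 CPM in D2.1 SCID-beige tumors 4 and 5, and to 1.45 to 18.1 CPM in tumors 1 to 3. Replicate 3 of cultured D2.1 cells was the lowest of its group for 35 genes. Leukocyte markers summed to 1027 to 2326 CPM in tumors and to at most 2.81 CPM in cultured cells, and no 2 libraries of a group were copies of each other.

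The promoters of these genes are known for 2 short elements, the cell cycle genes homology region (CHR), read by the MuvB complex, and the CCAAT box, read by NF-Y. RefSeq promoter windows (GRCm38.p6, 250 bases before to 50 bases after the start) were at hand for 35 of the 42 genes. The windows of 6 of them are printed here because these genes carry the results that follow, or because neither element was found. Only the last 200 bases before the start (199 for Ube2c) are printed, 5′ to 3′ on the strand of the gene, with the letters of both elements in capitals (TTTGAA or TTCGAA, and CCAAT, on either strand, so that TTCAAA and ATTGG are also in capitals). They lie at chr10:69352913-69353112, minus strand, for Cdk1, at chr11:99024190-99024389, minus strand, for Top2a, at chr2:164769729-164769927, plus strand, for Ube2c, at chr3:27153879-27154078, minus strand, for Ect2, at chr4:118437344-118437543, minus strand, for Cdc20, and at chr11:117849037-117849236, plus strand, for Birc5.
Cdk1: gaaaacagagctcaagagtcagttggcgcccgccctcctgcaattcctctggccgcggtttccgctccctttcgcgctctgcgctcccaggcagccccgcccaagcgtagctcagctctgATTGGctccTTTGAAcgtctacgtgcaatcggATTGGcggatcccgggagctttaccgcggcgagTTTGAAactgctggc
Top2a: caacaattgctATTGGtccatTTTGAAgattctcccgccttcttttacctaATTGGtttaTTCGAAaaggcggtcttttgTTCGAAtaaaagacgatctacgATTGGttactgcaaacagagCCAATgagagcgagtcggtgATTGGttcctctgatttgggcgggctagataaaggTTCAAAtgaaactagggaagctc
Ube2c: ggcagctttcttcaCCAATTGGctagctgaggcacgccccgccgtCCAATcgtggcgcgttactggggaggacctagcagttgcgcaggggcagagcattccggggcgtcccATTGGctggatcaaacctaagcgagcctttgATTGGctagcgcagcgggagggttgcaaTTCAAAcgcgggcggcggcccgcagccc
Ect2: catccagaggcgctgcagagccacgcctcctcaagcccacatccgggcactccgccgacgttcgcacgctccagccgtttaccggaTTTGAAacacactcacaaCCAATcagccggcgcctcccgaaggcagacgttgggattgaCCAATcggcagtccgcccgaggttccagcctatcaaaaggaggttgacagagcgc
Cdc20: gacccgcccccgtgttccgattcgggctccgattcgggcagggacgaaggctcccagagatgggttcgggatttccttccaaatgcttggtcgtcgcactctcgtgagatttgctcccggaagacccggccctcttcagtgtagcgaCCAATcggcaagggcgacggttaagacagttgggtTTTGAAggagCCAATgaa
Birc5: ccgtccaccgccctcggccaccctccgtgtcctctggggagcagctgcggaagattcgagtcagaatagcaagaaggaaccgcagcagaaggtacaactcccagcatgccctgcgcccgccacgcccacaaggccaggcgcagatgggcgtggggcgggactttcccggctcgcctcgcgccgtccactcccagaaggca

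Of the 35 promoters, 28 (80.0%, 95% Wilson interval 64.1% to 90.0%) held the CHR letters, against 5254 of 27025 promoters of all genes (19.4%). The CCAAT letters were found in 27 of them (77.1%, 61.0% to 87.9%), against 37.9% of all promoters. Both elements stood in 25 windows and neither in 5, which were those of Birc5, Mad2l1, Nuf2, Nusap1 and Pttg1. The promoter of Top2a, the topoisomerase that untangles chromosomes before anaphase, held 4 matches to the CHR letters and 6 to CCAAT in the whole window, while that of Ube2c held 1 and 6, of which 2 overlap. In each of Top2a, Ube2c and Cdk1, 1 CCAAT match lies farther from the start than the printed bases. In the last 100 bases before the start, 25.7% of the members and 6.29% of all promoters held the CHR letters, and some of the matches lay only in the 50 bases after the start, as in Aurka, Plk1, Cenpa and Cdc25b. These shares describe letters in a window, and a missing match says nothing about which factors bind.

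**Figure D1:**
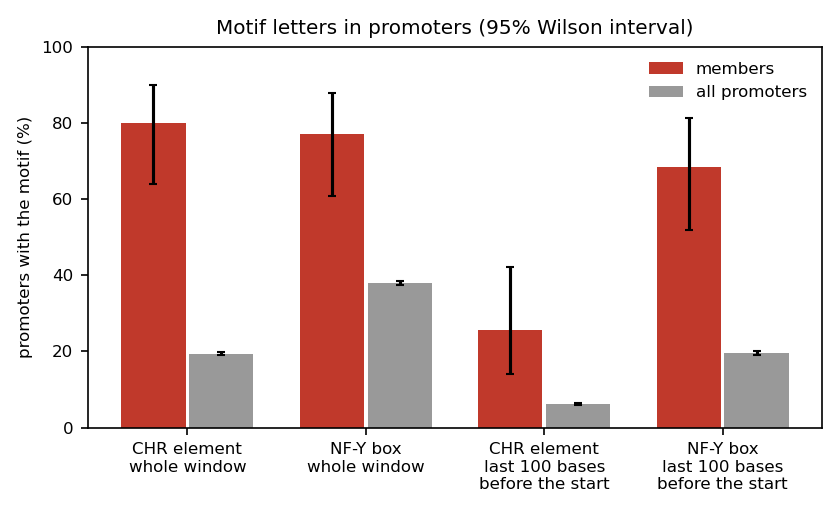
Share of promoters, in percent on the vertical axis, that held the letters of the CHR element or the NF-Y box, in the whole window or its last 100 bases before the start, for 35 members and for 27025 promoters. Bars are shares and lines are 95% Wilson intervals, and the members stand above all promoters in each pair, for example at 80.0% against 19.4% for the CHR element.

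The highest level of all 42 genes, averaged over the members on the log2 CPM scale, was found in culture, and the lowest in the BALB/c tumors of D2.1. The mean was 7.35 ± 0.06 (SD, n = 3) in D2A1 cells and 7.26 ± 0.15 (n = 3) in D2.1 cells. In tumors it was 6.15 ± 0.19 (n = 4) for D2A1 in BALB/c, 5.96 ± 0.12 (n = 5) for D2A1 in SCID-beige, 5.85 ± 0.25 (n = 5) for D2.1 in SCID-beige and 5.63 ± 0.14 (n = 4) for D2.1 in BALB/c. The cultured lines did not differ beyond their spread, nor did the SCID-beige groups, while the ranges of the BALB/c groups did not overlap (5.50 to 5.82 in D2.1 and 5.93 to 6.34 in D2A1). By length-scaled FPKM, Cenpa, the histone variant that marks the centromere, was the most abundant member in D2A1 cells (171 ± 27.2 FPKM) and Cdc20 in D2.1 cells (120 ± 9.13 FPKM). Within the tumors, Top2a was the most abundant in all 4 groups, from 118 ± 25.9 FPKM in D2.1 BALB/c to 199 ± 65.0 in D2A1 BALB/c tumors. These ranks cannot be compared between culture and tumors, because the gene models differ. The implied length was 5221 bases in cells and 1695 in tumors for Top2a, and 1354 and 1197 for Cenpa. Ttk, the kinase that starts the checkpoint, and Cdc25c, a phosphatase that activates CDK1, were among the 3 least abundant in every tumor group, at 6.64 to 12.3 FPKM.

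**Figure D2:**
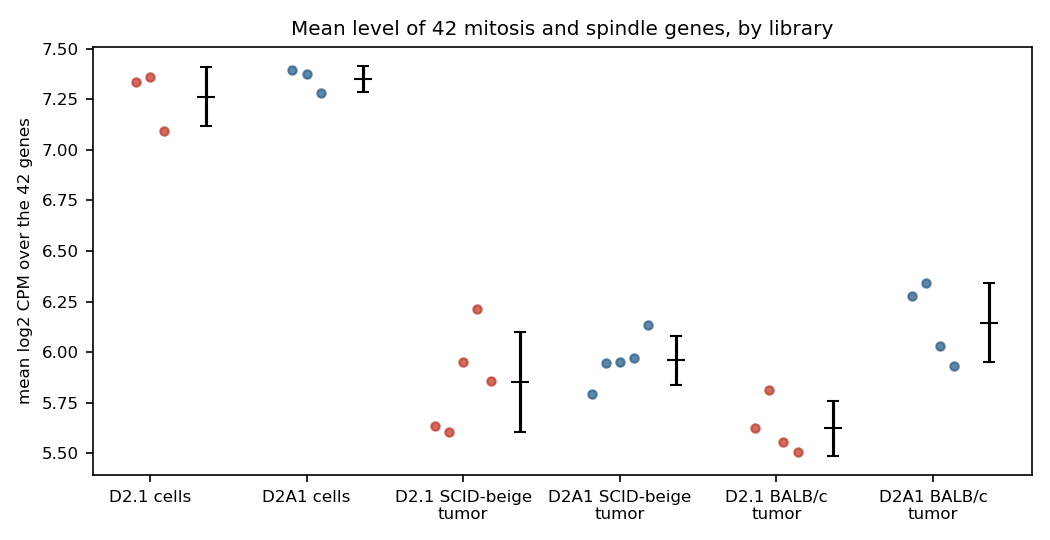
Mean log2 CPM over the 42 genes (vertical axis) in each library of the 6 groups (horizontal axis), with D2.1 in red, D2A1 in blue, and the mean ± SD of the group beside the points. Cultured cells lie at 7.09 to 7.39 and tumors at 5.50 to 6.34, and D2.1 BALB/c tumors lie below D2A1 BALB/c tumors without overlap.

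The comparison of D2.1 with D2A1 tumors in BALB/c mice asked how the lines differ with an intact immune system, and more members were called here than between the lines in any other setting. Of the 42 genes, 17 were lower in D2.1 tumors and 0 were higher by edgeR's quasi-likelihood test (Benjamini-Hochberg adjusted p under 0.05 over 14953 genes). Over all genes tested, 15.8% were lower and 16.8% were higher. The median log2 fold change was -0.55 for the members and -0.02 for all genes, and 39 of the 42 estimates were below 0. None of the members was higher at an unadjusted p under 0.05 or by DESeq2, and 24 were lower at that unadjusted p and 22 by DESeq2. Over all genes, 3187 were lower and 3215 higher at that unadjusted p, and 2725 and 3021 by DESeq2. Around their group means, same-numbered tumors of the lines correlated at 0.10 to 0.49. Only 1 of the 4 D2.1 tumors correlated best with the D2A1 tumor of its own number, and no label names a shared batch. With the number as a block 33 were lower and 0 higher, in a fit where the calls over all genes also rose, from 2358 to 3713 lower and from 2510 to 3403 higher. By role, 4 of 5 mitotic kinases and partners, 2 of 4 genes of the anaphase-promoting complex group and 3 of 5 centromere and kinetochore genes lower, while 1 of 6 midzone genes and 0 of 2 proliferation marks passed (0 and 1 at an unadjusted p under 0.05, higher and lower).

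Aurka encodes the kinase that matures centrosomes and builds the spindle poles. Its levels were 34.7, 36.4, 42.3 and 43.7 CPM in the D2.1 tumors and 69.0, 76.0, 90.8 and 75.4 CPM in the D2A1 tumors. The groups did not overlap, with a 1.998-fold lower level in D2.1 (log2 fold change -0.998 ± 0.158 SE, edgeR adjusted p = 0.000855). For its close relative Aurkb, the chromosomal passenger kinase, the difference was smaller, at -0.48 ± 0.16 (edgeR adjusted p = 0.0396), and for Tpx2, which activates Aurora A on microtubules, it was -0.56 ± 0.17 (edgeR adjusted p = 0.0270). Plk1, the Polo-like kinase of mitotic entry, stood at 36.01, 40.8, 48.6 and 43.1 CPM in D2.1 and at 67.0, 70.1, 80.8 and 67.8 CPM in D2A1. These groups were also apart, at -0.78 ± 0.15 (edgeR adjusted p = 0.00320). Birc5, or survivin, the passenger subunit that guides Aurora B, was 64.2, 49.1, 74.6 and 77.2 CPM in D2.1 and 78.1, 78.1, 123 and 77.0 CPM in D2A1. Its ranges touched at the edge, D2A1 tumor 3 lay far above the others, and the difference did not pass (-0.44 ± 0.22, edgeR adjusted p = 0.148).

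Among the cyclins, Ccnb1, the main partner of CDK1, was 51.8, 60.2, 45.1 and 55.2 CPM in D2.1 tumors and 104, 103, 93.0 and 84.7 CPM in D2A1 tumors, without overlap. The fall was 1.83-fold (-0.87 ± 0.15, edgeR adjusted p = 0.00137). Cdk1 itself was 49.5, 50.8, 71.9 and 68.4 CPM against 83.2, 74.5, 98.0 and 93.1 CPM, again without overlap but with a smaller difference of -0.55 ± 0.18 (edgeR adjusted p = 0.0375). The CDC25 phosphatases parted, since Cdc25c was 1.75-fold lower (-0.81 ± 0.19, edgeR adjusted p = 0.00771) and Cdc25b, which acts earlier at the centrosome, was 92.4, 92.8, 110.4 and 117 CPM against 101, 95.3, 96.9 and 85.6 CPM. Cdc25b levels overlapped, and the difference was 0.11 ± 0.15 (edgeR adjusted p = 0.596). Foxm1, the transcription factor of this program, was 111, 134, 115 and 84.3 CPM in D2.1 and 121, 159.7, 122 and 84.2 CPM in D2A1, with overlapping groups and a difference of -0.15 ± 0.21 (edgeR adjusted p = 0.626).

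Both partners of the anaphase-promoting complex were lower. Ube2c, its ubiquitin-conjugating enzyme, was 58.6, 51.4, 83.3 and 85.5 CPM in D2.1 and 153, 127, 203 and 140.2 CPM in D2A1, a 2.25-fold fall with no overlap (edgeR adjusted p = 0.00249). Cdc20, its mitotic activator, was 49.7, 58.6, 72.6 and 82.7 CPM against 91.8, 87.4, 136 and 110.1 CPM, so that the highest D2.1 tumor fell short of the lowest D2A1 tumor (-0.70 ± 0.21, edgeR adjusted p = 0.0248). In the checkpoint, Bub1 was 2.21-fold lower (-1.14 ± 0.35) and Mad2l1 1.65-fold lower (-0.72 ± 0.16), with edgeR adjusted p-values of 0.0299 and 0.00543. Bub3, which carries BUB1 to kinetochores, was 80.2, 80.9, 96.1 and 104 CPM in D2.1 and 85.2, 77.6, 109.9 and 104 CPM in D2A1, with wide overlap (-0.07 ± 0.17, edgeR adjusted p = 0.779). At the centromere, Cenpa was 61.0, 62.7, 79.1 and 58.5 CPM in D2.1 and 146, 114, 142 and 119 CPM in D2A1. The groups were well apart (2.01-fold lower, edgeR adjusted p = 0.000770).

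The largest estimate of all was that of Ect2, the exchange factor that activates RhoA for the cleavage furrow, at 33.9, 62.2, 14.5 and 13.8 CPM in D2.1 and 94.6, 131, 56.5 and 53.9 CPM in D2A1. The tumors of each line varied widely and the groups overlapped, so that the 2.77-fold lower level had a large error (-1.47 ± 0.48, edgeR adjusted p = 0.0384). The proliferation marks did not pass. Mki67, the antigen Ki-67, was 192, 325, 189.5 and 163 CPM in D2.1 and 210.1, 278, 139 and 123 CPM in D2A1, with overlap and a difference of 0.19 ± 0.29 (edgeR adjusted p = 0.659). Top2a was 212.1, 258, 190.2 and 146 CPM against 388, 412, 236 and 233 CPM, at -0.68 ± 0.24 (edgeR adjusted p = 0.0510). Prc1, the bundler of the central spindle, was the highest estimate (0.31 ± 0.29, edgeR adjusted p = 0.462).

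The BALB/c tumors also differed among themselves in a property of the library. Tumors 1 and 2 of both lines had more signal on long transcripts and tumors 3 and 4 on short ones, with slopes of log2 expression per doubling of length of 0.05 to 0.20 and of -0.17 to -0.09. With this slope as a covariate 33 members were lower and 0 higher (4009 and 3624 over all genes), and with the slope on GC content 20 were lower and 2, Mki67 and Prc1, higher (3552 and 3536 over all genes) with a median of -0.37. With the replicate number and either the length or the GC slope together, a fit that leaves few degrees of freedom from 8 tumors, edgeR called 0 members, and the calls over all genes fell to 115 lower and 291 higher with the length slope and 206 and 339 with the GC slope. Leaving out single tumors moved the count, to 9 without D2A1 tumor 1, 10 without D2.1 tumor 3 and 11 without D2.1 tumor 1 or D2A1 tumor 2, all lower. Without D2.1 tumors 1 and 4 together, 7 were lower, with a median of -0.54. Across the same tumors, fibroblast markers summed to 9142 to 15547 CPM in D2.1 and 2246 to 3705 CPM in D2A1, with none of the 6 at 0, and endothelial markers to 74.2 to 121 and 191 to 251 CPM. By edgeR, 5 of the 6 fibroblast markers were higher in D2.1 and 0 lower, and 3 of the 5 endothelial markers were lower and 0 higher. Skeletal muscle markers summed to 33.6 to 336 CPM in D2.1 and 7.35 to 60.8 CPM in D2A1, with 1 of 6 higher and 0 lower by edgeR. Cultured D2.1 cells also expressed fibroblast markers, which summed to 1992 to 2797 CPM against 82.7 to 106 in D2A1 cells. Only 4 of the 6 passed the expression filter in culture, and all 4 were higher in D2.1 by edgeR. Leukocyte markers overlapped in their sum (1474 to 1770 and 1331 to 2295 CPM), but 7 of the 13 tested were higher in D2.1 and 0 lower by edgeR (median 0.85). The part of these cells in the result was not tested, and in whole tumors fewer dividing cells and less RNA per cell cannot be told apart.

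The comparison in SCID-beige mice asked the same without T and B cells. There, 3 of the 42 genes were lower in D2.1 tumors and 1 was higher (edgeR adjusted p under 0.05), against 14.8% and 17.2% of 14355 genes. The median was -0.13 for the members and 0.02 for all genes, with 27 estimates below 0. The 3 lower genes were Aurka, Ube2c and Cenpa, which were 3 of the 17 lower in BALB/c. DESeq2 also called 3 lower and 1 higher.

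Aurka was 37.0, 41.1, 42.8, 66.9 and 38.7 CPM in D2.1 and 77.2, 94.3, 62.7, 61.1 and 64.7 CPM in D2A1, so that only D2.1 tumor 4 reached into the D2A1 range (-0.68 ± 0.20, edgeR adjusted p = 0.0190). Ube2c was 73.4, 84.1, 75.6, 154 and 74.9 CPM against 187, 231, 122, 123 and 119 CPM, and again D2.1 tumor 4 alone overlapped (-0.77 ± 0.26, edgeR adjusted p = 0.0372). Cenpa was 72.8, 74.7, 94.5, 97.8 and 76.1 CPM against 99.4, 152, 100.3, 128 and 109 CPM, without overlap, at -0.51 ± 0.16 (edgeR adjusted p = 0.0276). The member higher in D2.1 was Prc1, at 72.5, 46.8, 91.6, 91.3 and 66.9 CPM in D2.1 and 35.4, 18.2, 51.6, 43.3 and 62.9 CPM in D2A1. These ranges overlapped, and the 1.74-fold difference (0.80 ± 0.28, edgeR adjusted p = 0.0430) was called in 2 of 10 fits that each left out a tumor.

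For the other members given in full the SCID-beige groups overlapped. Ccnb1 was 59.3, 56.2, 67.7, 105 and 66.0 CPM in D2.1 and 69.9, 77.4, 83.8, 78.0 and 93.2 CPM in D2A1, at -0.19 ± 0.18. Cdk1 was 62.6, 84.4, 63.7, 103 and 58.0 CPM and 99.0, 123, 68.4, 71.4 and 71.2 CPM, at -0.23 ± 0.22. Plk1 was 51.3, 46.4, 47.5, 70.7 and 40.9 CPM and 68.6, 84.0, 46.9, 50.1 and 57.5 CPM, at -0.27 ± 0.20. In each of these D2.1 tumor 4 was the highest D2.1 tumor. Cdc20 was 74.6, 82.6, 75.3, 114 and 61.7 CPM and 104, 149, 79.9, 86.1 and 102 CPM, at -0.36 ± 0.21. Birc5 was 71.7, 65.4, 67.3, 101 and 60.7 CPM and 99.7, 125, 74.4, 73.3 and 60.5 CPM, at -0.25 ± 0.22. Foxm1 was 143, 99.3, 86.1, 134 and 107 CPM and 125, 110.0, 105, 122 and 123 CPM, at -0.04 ± 0.16. The ranges of each pair covered each other in large part. Top2a was 169, 160.2, 257, 336 and 251 CPM and 219.7, 215.4, 267, 250.1 and 338 CPM, at -0.14 ± 0.21. Mki67 was 211.6, 138, 192, 209 and 253 CPM and 115, 125, 155, 171 and 199 CPM, at 0.38 ± 0.19. Bub3 was 91.7, 93.1, 93.9, 122 and 89.3 CPM and 94.8, 107, 78.6, 73.2 and 76.8 CPM, at 0.18 ± 0.16. Ect2 (-0.63 ± 0.40) and Hmmr (0.50 ± 0.20) were among the largest estimates either way. None of these 11 passed, with edgeR adjusted p-values from 0.0725 (Hmmr) to 0.862 (Foxm1).

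The count in SCID-beige mice moved with the fit and with single tumors. The replicate block gave 5 lower and 3 higher (2471 and 2840 over all genes) and the GC slope 6 and 2 (2641 and 3071). The block together with the GC slope gave 1 lower and 0 higher with a median of 0.078 (1018 and 1327 over all genes), and together with the length slope 0 by edgeR (1150 and 1606). Without D2.1 tumor 4, 6 members were lower and 0 higher with a median of -0.28, and without D2.1 tumor 5 none were called by edgeR. Without D2.1 tumor 1, 1 was called (lower), and without D2A1 tumor 2 or 4, 2 were called (lower). Fibroblast markers summed to 6272 to 15017 CPM in D2.1 and 1451 to 3847 CPM in D2A1 tumors and endothelial markers to 49.99 to 87.7 and 174 to 247 CPM. By edgeR, 5 of the 6 fibroblast markers were higher in D2.1 and 0 lower. The remaining fibroblast marker was below 0 at an unadjusted p under 0.05. Of the 5 endothelial markers, 4 were lower and 0 higher by edgeR. Leukocyte markers summed to 1027 to 2326 and 1125 to 1635 CPM, with 5 of the 9 tested higher in D2.1 and 0 lower by edgeR (median 0.92). The part of these cells was not tested.

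**Figure D3:**
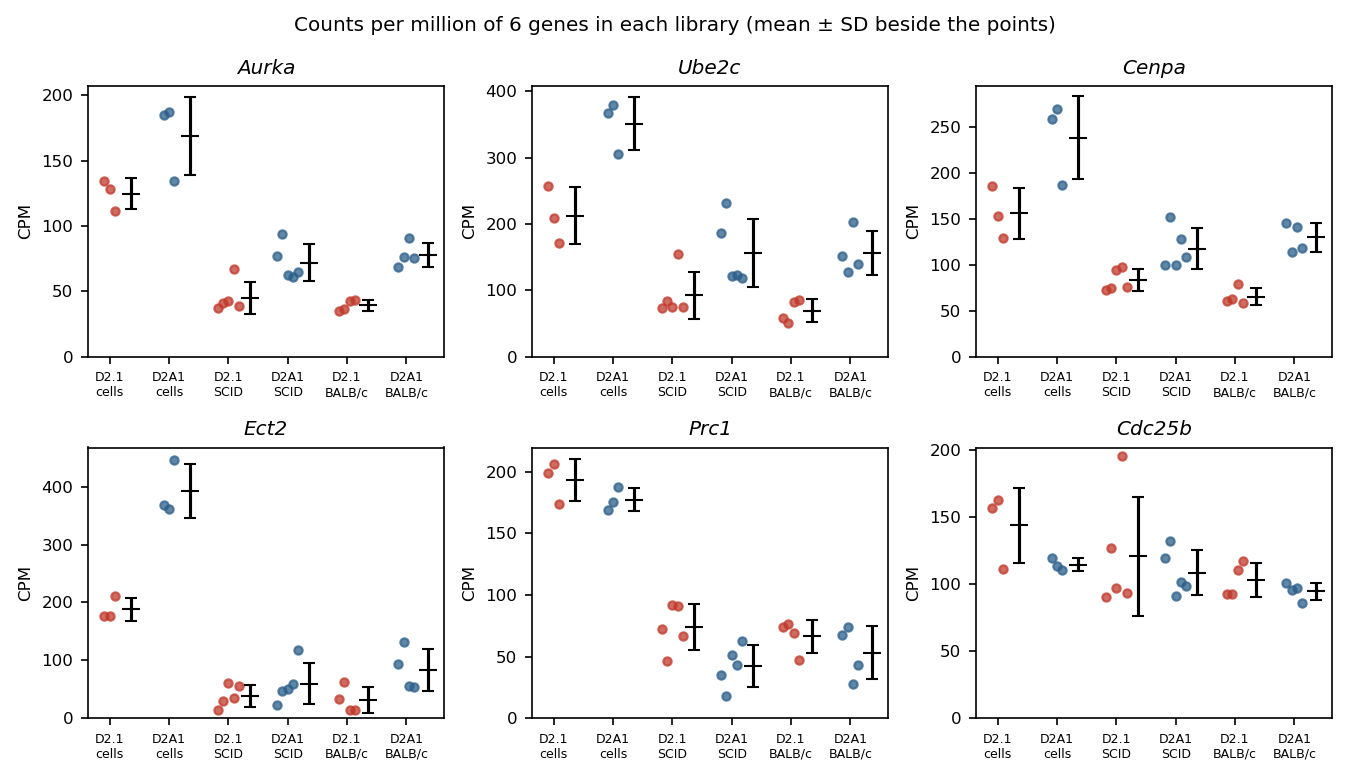
CPM (vertical axes, from 0) of Aurka, Ube2c, Cenpa, Ect2, Prc1 and Cdc25b in every library of the 6 groups, with the mean ± SD of the group beside the points (D2.1 in red, D2A1 in blue). Aurka, Ube2c and Cenpa lie lower in D2.1 in each setting, Prc1 does not, and Cdc25b stays near 85.6 to 196 CPM in tumors and 110.3 to 163 CPM in culture.

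Whether the difference between lines itself depended on the host was tested as an interaction over all 18 tumors, which shares these tumors with the comparisons above. None of the 42 genes passed with edgeR or DESeq2, against 0.0187% of 16036 genes higher and 0% lower with edgeR. DESeq2 called 77 of all genes higher and 25 lower. At an unadjusted p under 0.05, 0 members were higher and 6 lower, against 608 and 747 of all genes. All 42 estimates were below 0, with a median of -0.47 against -0.06 for all genes. The most negative were Ect2 (-0.83 ± 0.67), Cenpe (-0.75 ± 0.39), the kinesin of kinetochores, and Ccnb1 (-0.69 ± 0.24, edgeR adjusted p = 0.413). Those nearest to 0 were Cdc25b (-0.04 ± 0.28), Ckap2 (-0.08 ± 0.21) and Foxm1 (-0.11 ± 0.26). The larger count in BALB/c is therefore not shown to differ from that in SCID-beige mice.

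The hosts were compared within each line to ask what the immune system of the host changed. For D2.1 tumors, 0 members were higher and 0 lower in BALB/c than in SCID-beige mice by edgeR, by DESeq2 or at an unadjusted p under 0.05. Of 14929 genes, edgeR called 0.871% higher and 0.0201% lower. DESeq2 called 404 and 57, and 1069 and 420 had an unadjusted p under 0.05. The estimates of 40 genes were below 0, with a median of -0.21, which became -0.10 without the SCID-beige tumor 4. Cdc25c (-0.41 ± 0.24), Ccnb1 (-0.40 ± 0.20) and Ube2c (-0.39 ± 0.27) were the most negative, and Mki67 (0.13 ± 0.21), Ckap2 (0.04 ± 0.17) and Foxm1 (-0.02 ± 0.20) the highest. For D2A1 tumors, 0 were higher and 0 lower in the same 3 ways, against 0.906% and 0.261% of 14572 genes. There 39 estimates were above 0, with a median of 0.20 against 0.01 for all genes, which became 0.12 without the BALB/c tumor 2. Ect2 (0.50 ± 0.40), Cenpe (0.37 ± 0.27) and Anln (0.34 ± 0.29), the scaffold of the contractile ring, were the highest, and Cdc25b (-0.19 ± 0.15), Nuf2 (-0.01 ± 0.16) and Ube2c (-0.00 ± 0.23) the lowest. The signs were opposite in the lines, but no gene passed in either, and the difference between them is the interaction given above.

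In culture, the members went both ways. Compared with D2A1 cells, 9 of the 42 genes were lower in D2.1 cells and 5 were higher (edgeR adjusted p under 0.05), close to the 20.7% lower and below the 24.2% higher among 12489 genes. The median was -0.09 for the members and -0.02 for all genes. The lower genes were Ect2, Ube2c, Cenpa, Cenpf, Bub1, Nusap1, Top2a, Anln and Aurka, and the higher genes Racgap1, Bub3, Ccnb2, Espl1 and Ttk.

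Ect2 was again the largest difference, at 177, 177 and 210.9 CPM in D2.1 and 369, 361 and 446 CPM in D2A1 cells. The lines did not overlap, with a 2.09-fold lower level in D2.1 (-1.07 ± 0.14, edgeR adjusted p = 0.000428). Racgap1, the partner that brings ECT2 to the central spindle, was 1.51-fold higher (0.59 ± 0.13, edgeR adjusted p = 0.00588). Ube2c was 257, 209.7 and 172 CPM in D2.1 against 368, 380.1 and 306 CPM, without overlap (-0.73 ± 0.17, edgeR adjusted p = 0.00753). Cenpa was 185, 154 and 129.8 CPM against 259, 269 and 187 CPM, the highest D2.1 value lying just under the lowest D2A1 value (-0.62 ± 0.18, edgeR adjusted p = 0.0225). Aurka was 134, 129 and 111 CPM against 185, 187 and 134 CPM, where the groups met at their edges, and the call (-0.45 ± 0.15, edgeR adjusted p = 0.0431) was kept in 1 of 6 fits that each left out a library. Cenpf, a late kinetochore protein (-0.61 ± 0.14), Bub1 (-0.55 ± 0.11), the spindle protein Nusap1 (-0.52 ± 0.11) and Anln (-0.51 ± 0.13) were lower in all 6 such fits.

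Top2a was 583.9, 603 and 572 CPM in D2.1 and 791, 743 and 964 CPM in D2A1 cells, 1.43-fold lower without overlap (edgeR adjusted p = 0.0204). Bub3 was higher in D2.1, at 202, 169.7 and 153 CPM against 134, 143 and 103 CPM (0.45 ± 0.16, edgeR adjusted p = 0.0467). Ccnb2, the second B-type cyclin, was 1.33-fold, Espl1, the separase that cuts cohesin, 1.27-fold and Ttk 1.26-fold higher. When each of the 6 libraries was left out in turn, Bub3 and Ccnb2 were called in 1 of the fits, Ttk in 2 and Espl1 in 0. For the remaining genes the lines overlapped or differed by less than the test required. Mki67 was 493, 657 and 363 CPM in D2.1 and 471, 423 and 395 CPM in D2A1, Ccnb1 was 289.6, 249.7 and 219.6 and 294, 304 and 260.3 CPM, and Cdk1 was 294, 212.9 and 193 and 205, 215.7 and 168 CPM. Plk1 was 204, 193 and 164 and 178, 193 and 128 CPM, Cdc20 268, 243 and 217.3 and 226, 235 and 157 CPM, and Birc5 218.9, 217.8 and 149 and 181, 181 and 124 CPM. In these 6 genes replicate 3 was the lowest of both lines. Foxm1 was 236, 285 and 209 and 254, 252 and 269 CPM, and Cdc25b was 157, 163 and 111 and 119, 113 and 110.3 CPM.

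The culture calls rested on a narrow margin. Without a single library 7 to 11 genes were called, and in particular 7 without D2A1 replicate 1, 8 without D2.1 replicate 1 or D2A1 replicate 2 and 9 without D2.1 replicate 2. The libraries also differed by line in the slope of log2 expression on GC content, at 0.07 to 0.10 per 10 percentage points in D2.1 and -0.20 to -0.02 in D2A1. With that slope as a covariate 3 members were lower and 0 higher (1178 and 1687 over all genes, against 2579 and 3023 without it), and the slope and the line cannot be told apart here. With the replicate number as a block together with the GC slope 4 were lower and 4 higher (2249 and 2806 over all genes), and together with the length slope 14 and 9 (3790 and 3896). Mammary epithelial markers summed to 2492 to 5086 CPM in D2.1 cells and 139 to 363 CPM in D2A1 cells, with Krt5 at 0 in both, and their part was not tested.

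Aurka, Ube2c and Cenpa were lower in D2.1 in culture and in both hosts, in 3 sets of libraries that share no sample. They made up all 3 genes lower in SCID-beige, 3 of 9 in culture and 3 of 17 in BALB/c. How many of all genes were lower in more than 1 of these settings was not counted, so the overlap has no background beside it. In fits without single libraries, Aurka was called in 1 of 6 in culture, 9 of 10 in SCID-beige and 8 of 8 in BALB/c, Cenpa in 2, 6 and 8, and Ube2c in 6, 4 and 8, and none of them was called in SCID-beige without D2.1 tumor 5. Aurka lies on chromosome 2 (172356190 to 172370535, minus strand, GRCm38), Ube2c on chromosome 2 (164769898 to 164778822, plus strand) and Cenpa on chromosome 5 (30666777 to 30674830, plus strand), and all 3 promoter windows held both elements.

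**Figure D4:**
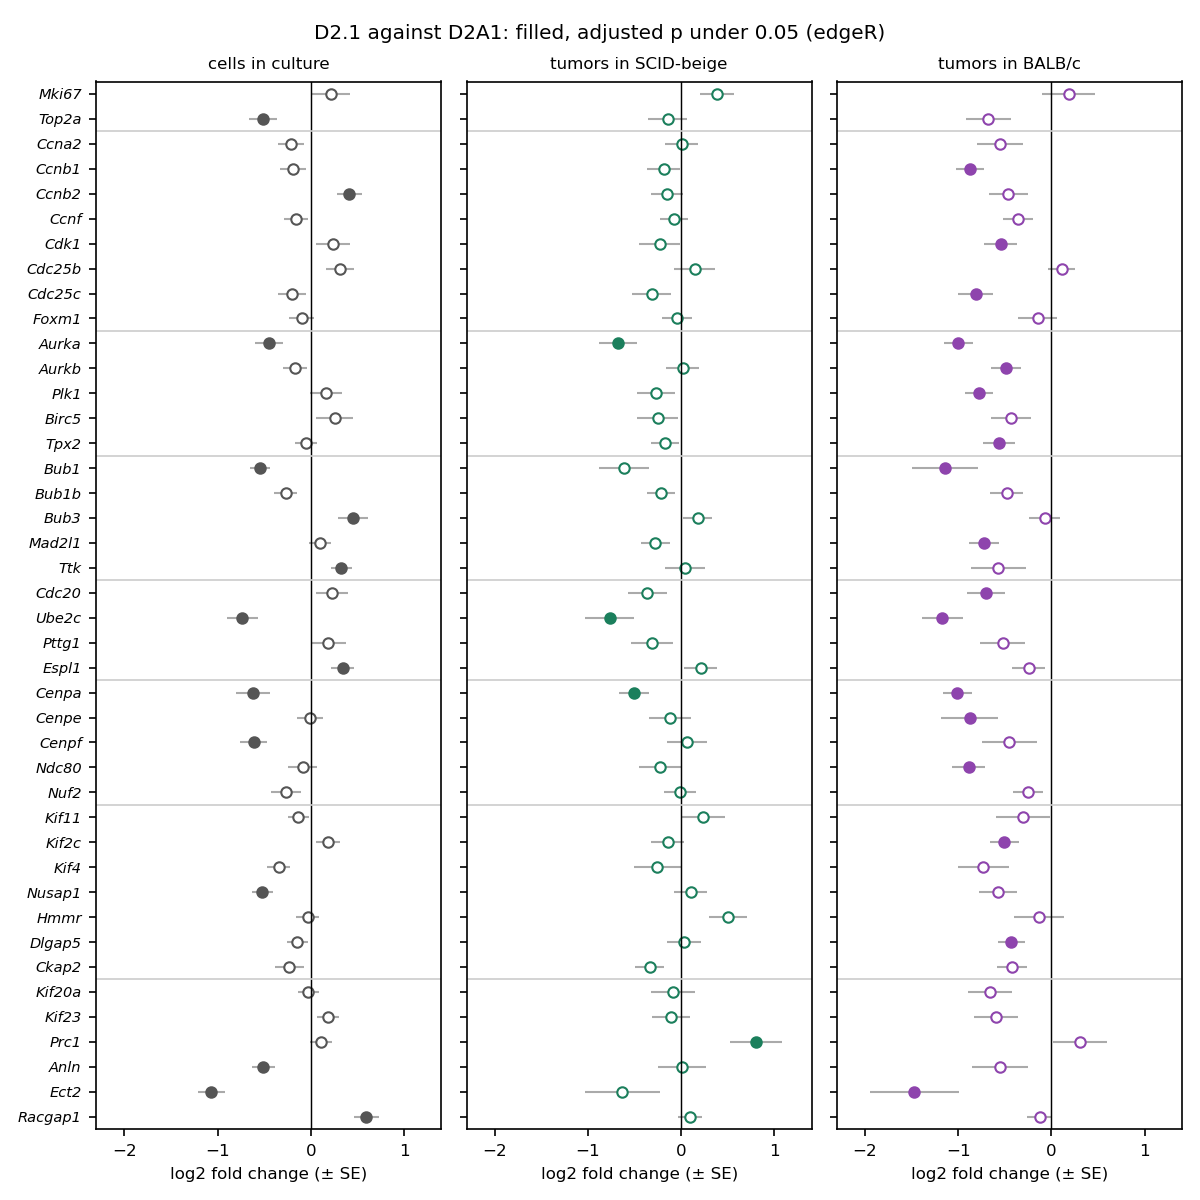
Log2 fold change of D2.1 against D2A1 (horizontal axes, ± SE) for the 42 genes in order of role (grey lines part the roles), in culture, in SCID-beige and in BALB/c tumors. Filled points passed an edgeR adjusted p under 0.05, which were 9 lower and 5 higher in culture, 3 and 1 in SCID-beige, and 17 and 0 in BALB/c.

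Tumors were then compared with the cultured cells of their line, using the SCID-beige tumors. In D2.1, 41 of the 42 genes were lower in the tumor and 0 higher (edgeR adjusted p under 0.05), against 22.3% lower and 30.8% higher among 14111 genes. The median log2 fold change was -1.37, or 2.59-fold, with 0.09 for all genes. In D2A1, 40 were lower and 0 higher, against 24.5% and 33.6% of 13869 genes, with a median of -1.36 and 0.10 for all genes. In neither line was a member higher by DESeq2 or at an unadjusted p under 0.05. At that unadjusted p, 4750 of all genes were higher in D2.1 tumors and 4961 in D2A1 tumors. The same 40 genes were lower in both lines, which do not share a library. With 41 and 40 of the 42 called, most had to be shared, and the share of all genes lower in both lines was not counted. These comparisons share the SCID-beige tumors and the cultured cells with those above.

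Every role had genes that fell. In D2.1 tumors the median fell most in the midzone and cytokinesis genes (-1.72) and the checkpoint genes (-1.70), and least in the centromere and kinetochore genes (-1.09). In D2A1 tumors the midzone genes were again the lowest (-1.88), followed by the proliferation marks (-1.60) and the kinesins and spindle proteins (-1.55). Ect2 had the largest fall in both lines, by 4.79-fold in D2.1 (-2.26 ± 0.35, edgeR adjusted p = 0.000337) and 6.58-fold in D2A1 (-2.72 ± 0.37, edgeR adjusted p = 8.64e-05). In D2.1 it was followed by Ttk (-1.97 ± 0.18) and Plk1 (-1.85 ± 0.19), and in D2A1 by Anln (-2.26 ± 0.24) and Hmmr (-2.13 ± 0.20), a microtubule and hyaluronan binding protein. Among the genes called, the smallest falls were those of Nusap1 (-0.57 ± 0.18) and Ccnf (-0.81 ± 0.17) in D2.1 and Bub3 (-0.57 ± 0.17) in D2A1. Mki67 was 363 to 657 CPM in cultured D2.1 and 138 to 253 CPM in the D2.1 tumors, and 395 to 471 and 115 to 199 CPM for D2A1, without overlap in either (-1.31 ± 0.22 and -1.50 ± 0.18). Foxm1 was lower in the tumors of both lines (-1.07 ± 0.19 in D2.1 and -1.15 ± 0.13 in D2A1).

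Cdc25b was the exception in both lines, at 111 to 163 CPM in cultured D2.1 and 90.4, 127, 97.3, 196 and 93.6 CPM in the tumors (-0.23 ± 0.26, edgeR adjusted p = 0.479), and at 110.3 to 119 CPM in cultured D2A1 and 119, 132, 91.0, 102 and 98.7 CPM in the tumors (-0.09 ± 0.15, edgeR adjusted p = 0.651). Its values overlapped between culture and tumor. Pttg1, the securin, fell in D2.1 (-0.86, edgeR adjusted p = 0.00604) and was -0.40 ± 0.23 in D2A1 (edgeR adjusted p = 0.161). Whether the fall differed between the lines was tested as an interaction, in which no member passed with edgeR or DESeq2. Of 15077 genes, edgeR called 4.62% higher and 8.18% lower. At an unadjusted p under 0.05, 2 members were higher and 2 lower, against 1534 and 2219 of all genes. The most negative estimates were Cdc20 (-0.57 ± 0.31), Ccnb2 (-0.55 ± 0.25) and Birc5 (-0.49 ± 0.33), and the highest Prc1 (0.70 ± 0.40), Cenpf (0.68 ± 0.31) and Nusap1 (0.63 ± 0.25). Without D2.1 tumor 4, 2 members were lower and 0 higher, and without D2.1 tumor 1 or D2A1 tumor 5, 1 was higher.

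The gene models differ between the tables, and a shorter model in the tumor table could hold fewer counts. The part of this in the result was not tested. For 7 genes the implied lengths of the tables were within 1.1-fold (Ccnb2, Ccnf, Cdc25c, Bub3, Ndc80, Kif11 and Kif20a). All 7 were lower in the tumors of both lines, with medians of -1.38 in D2.1 and -1.02 in D2A1. Of all 42 members, 41 in D2.1 and 40 in D2A1 were lower, so most of any 7 had to be. How many of all genes with such lengths were lower was not counted. For D2A1, same-numbered libraries of culture and tumor passed the correlation rule for a pair (0.13 to 0.27), although no label names a shared batch. There, the replicate number as a block together with the GC slope left 3 members lower (median -0.76) and together with the length slope 6 (median -1.19). In these fits the calls over all genes also fell, from 3399 lower and 4655 higher to 137 and 449 and to 167 and 431, and the block or the GC slope alone left 40 members lower. Non-tumor cells moved with the same contrast, as leukocyte markers summed to 1027 to 2326 CPM in D2.1 and 1125 to 1635 CPM in D2A1 SCID-beige tumors, with Cd3g and Ms4a1 among the markers at 0 in D2A1, and to at most 2.81 and 1.03 CPM in the cultured cells. Their part in the result was not tested.

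**Figure D5:**
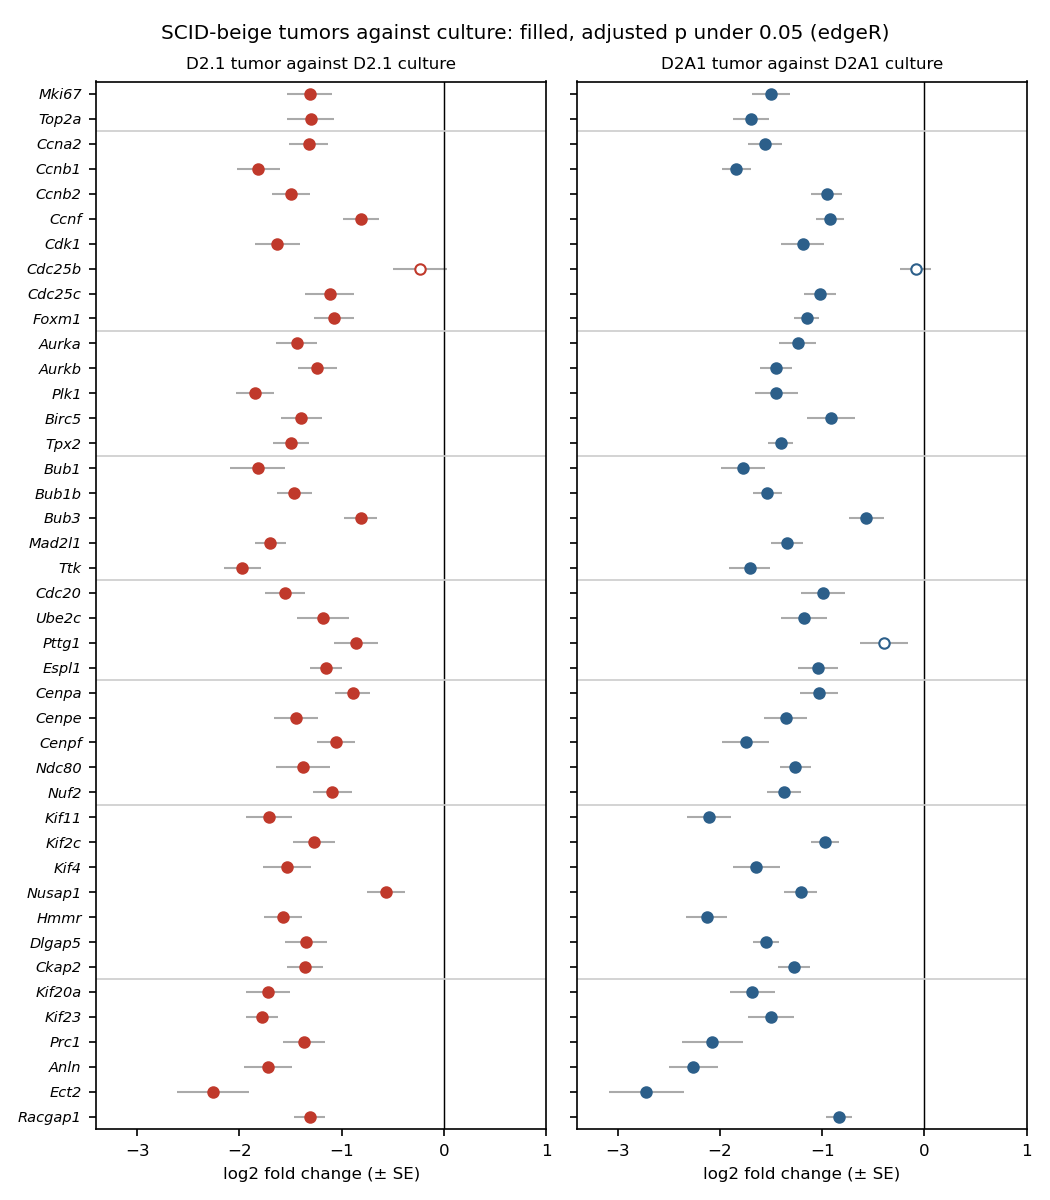
Log2 fold change of SCID-beige tumors against the cultured cells of the same line (horizontal axes, ± SE) for the 42 genes in order of role. Filled points passed an edgeR adjusted p under 0.05 (41 lower in D2.1 and 40 in D2A1), and Cdc25b lies near 0 in both.

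A list of 101 other mitosis genes was kept apart from the members. In BALB/c tumors 35 were lower and 5 higher in D2.1, with a median of -0.50, against the 15.8% and 16.8% of all genes given above. The largest falls were those of Haus1 (-1.50), an augmin subunit that nucleates spindle microtubules, Trip13 (-1.38), which switches the checkpoint off, and Cenpu (-1.20), and the largest rises those of the kinetochore gene Cenpm (1.24), Anapc5 (0.59) and Numa1 (0.49). In SCID-beige tumors 8 (7.92%) were lower and 2 (1.98%) higher (median -0.18), against 14.8% and 17.2% of all genes. In culture 26 (25.7%) were lower and 6 (5.94%) higher (median -0.22), against 20.7% and 24.2% of all genes. There, Psrc1 (-1.67), Nsl1 (-1.07) and Dsn1 (-0.88) were the lowest and Cenpm (0.95), Fzr1 (0.76) and Gtse1 (0.62) the highest. Tumors were lower than culture in 83 genes for D2.1 (1 higher) and in 81 for D2A1 (2 higher), with medians of -1.11 and -1.13. Over all genes 22.3% and 24.5% were lower, and 30.8% and 33.6% were higher. Neither host comparison nor the interaction of line and host had a call in this list with edgeR. At an unadjusted p under 0.05, 6 genes of the list passed for the D2.1 hosts, 5 for the D2A1 hosts and 14 for the interaction. Of all genes, 1489 of 14929, 1472 of 14572 and 1355 of 16036 passed at that unadjusted p. Over all genes, at most 0.906% were called in either direction in these comparisons.

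Of 12 genes of the MuvB, B-Myb and DREAM complexes, which turn the members on and off, Mybl2 (B-Myb) was lower in D2.1 in culture (-1.46 ± 0.27), in BALB/c (-1.14 ± 0.20) and in SCID-beige tumors (-0.99 ± 0.28), with edgeR adjusted p-values of 0.00257, 0.00151 and 0.0156. Rbl2, the pocket protein p130 of DREAM, was higher in D2.1 tumors of BALB/c (1.43 ± 0.29) and SCID-beige mice (1.097 ± 0.271), with edgeR adjusted p-values of 0.00379 and 0.00704. Altogether 5 of these genes were lower and 1 higher in culture, 4 and 1 in BALB/c, and 1 and 1 in SCID-beige. As shares of the 12 these were 41.7% and 8.33%, 33.3% and 8.33%, and 8.33% each way. Over all genes the shares lower and higher were 20.7% and 24.2%, 15.8% and 16.8%, and 14.8% and 17.2%. Against culture, 7 were lower and 0 higher in D2.1 tumors (1 higher at an unadjusted p under 0.05), with Tfdp1 (-1.60), Lin54 (-1.40) and Mybl2 (-1.39) the lowest, and 8 lower and 1 higher in D2A1 tumors, with Mybl2 (-1.89), Lin54 (-1.84) and Lin9 (-1.78) the lowest and Lin37 (0.93) the higher gene. Over all genes 22.3% were lower and 30.8% higher in D2.1 tumors, and 24.5% and 33.6% in D2A1 tumors.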

How the data were processed

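RNA of 6 cell and 18 tumor libraries was sequenced on an Illumina instrument, and the submitters' processing notes name STAR and mm10. The authors deposited raw counts and FPKM by gene, with cells and tumors in separate tables. The counter and the use of strand are not given in the sources used here, so reads of overlapping genes cannot be told apart. Counts were joined over 34519 shared genes, named with GENCODE M21, and tested with edgeR 4.0.16 (R 4.3.3, TMM factors, filterByExpr, quasi-likelihood fit, Benjamini-Hochberg adjustment, threshold 0.05) in 9 comparisons, with DESeq2 1.42.0 as an alternative. Each comparison was fitted on its own groups. Simulated data with a single fixed spread were run only for culture, the lines in BALB/c, the interaction of line and host, and D2.1 tumors against culture. FPKM served only for levels between genes of a table. A floor of 3 counts was 0.121 to 0.221 CPM, covering counting error only. Members and lists were chosen with earlier results of these data known. All members may be named, 12 with every sample, and in each comparison the 3 highest and 3 lowest estimates and any member called against the majority. Correlations of same-numbered libraries passed the rule for a pair in culture (0.18 to 0.49), BALB/c lines (0.10 to 0.49) and D2A1 tumors against culture (0.13 to 0.27), although no label names a shared batch. The replicates are separate tumors or cultures only as far as the labels number them, so p-values measure the spread between these samples. Fits with the length slope were added after seeing the data. Promoters are from RefSeq, and the first of 2 entries was used for 3 members. The level of 1 marker gene is not reported here.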

Additional observations from a re-analysis of the deposited data

Results flagged for a closer look

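In groups of 4 or 5 samples, a sample was singled out when its gap to the nearest other sample, divided by the range of the group, passed Dixon's 95% limit. Of 52 group values tested for the 12 genes given in full and the member mean, 5 were singled out, where chance gives about 1 in 20. In D2.1 SCID-beige tumor 4, Ccnb1 was 105 CPM (nearest 67.7), Aurka 66.9 CPM (nearest 42.8), Birc5 101 CPM (nearest 71.7) and Bub3 122 CPM (nearest 93.9), with ratios of 0.724 to 0.859 against a limit of 0.71. In D2A1 BALB/c tumor 3, Birc5 was 123 CPM (nearest 78.1), with a ratio of 0.976, past the limit for 4 samples. These samples were kept in all values, and the counts without D2.1 SCID-beige tumor 4 are given with its comparisons.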

How the results depend on the processing

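Another filter, DESeq2 or its size factors changed no count by more than 1.5 times. Gene-level values were scored only for the members named in each comparison. Of 2881 such values under all alternatives, 2692 kept their side of the threshold, 148 lost it and 41 gained it. In 0 of them did a member that was called in either fit change its sign. Changes of sign in members not called in either fit were not counted. Leaving out single libraries gave 7 to 11 calls in culture, 9 to 18 in BALB/c, 0 to 6 in SCID-beige and 0 to 2 in the interaction of line and site. The replicate block gave 33 calls in BALB/c and 8 in SCID-beige and changed no other count by more than 1.5 times. The GC slope gave 3 calls in culture and 8 in SCID-beige, and medians of -0.37 in BALB/c and -1.16 for D2A1 tumors against culture. The block with the GC slope gave 8 calls in culture (median 0.053), 0 in BALB/c, 1 in SCID-beige (median 0.078) and 3 for D2A1 tumors against culture (median -0.76), and medians of -0.27 for the interaction of line and host, -1.14 for D2.1 tumors against culture and -0.23 for the interaction of line and site. The length slope gave 33 calls in BALB/c, and with the block 23 in culture, 0 in BALB/c and SCID-beige and 6 for D2A1 tumors against culture (median -1.19). Without D2.1 BALB/c tumors 1 and 4, 7 were called. By FPKM, 1 member, against 3 by CPM, had a lower mean in BALB/c than SCID-beige D2A1 tumors. In the last 100 bases, 25.7% of member promoters held the CHR letters. The causes were not tested. With 3 to 5 samples a group, small differences were not detectable.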

Other observations

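A list of 40 DNA replication genes, which act before mitosis in the cell cycle, was lower in D2.1 than in D2A1 in 12 genes in culture (0 higher by edgeR, also at an unadjusted p under 0.05), in 20 in BALB/c (1 higher) and in 11 in SCID-beige tumors (2 higher), with median log2 fold changes of -0.26, -0.70 and -0.30. Over all genes 20.7%, 15.8% and 14.8% were lower. Rrm2, the ribonucleotide reductase subunit that makes deoxynucleotides, was the lowest in both hosts (-1.86 ± 0.16 SE in BALB/c and -1.37 ± 0.18 in SCID-beige), and Orc6, of the origin recognition complex, was higher in both (0.63 ± 0.20 and 0.74 ± 0.14). In culture, Pola1, a subunit of DNA polymerase alpha, was the lowest (-1.13 ± 0.13). SCID-beige tumors were lower than cultured cells in 36 of the 40 genes for D2.1 and in 37 for D2A1 (0 higher, also at an unadjusted p under 0.05), with medians of -1.20 and -1.31, against 22.3% and 24.5% of all genes lower, and Rrm2 was again the lowest in both (-2.83 ± 0.23 and -2.56 ± 0.14).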
